A study of Mus musculus with 8 samples.

Results

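The genes described here are 9 genes of iron uptake, storage, export and reduction, taken by name from a count table of 54658 gene symbols: Tfrc and Slc11a2 (uptake), Fth1 and Ftl1 (storage), Slc40a1 (export) and Steap1, Steap2, Steap3 and Steap4 (metalloreductases). Their transcripts were counted by RNA-Seq in 8 cultured samples of primary murine articular chondrocytes, the cells of joint cartilage. The chondrocytes had been released by collagenase from femoral head cartilage of wild-type mice aged 3 weeks, with 4 samples exposed for 24 h to IL-1β at 1 ng/mL and 4 to vehicle. IL-1β is an inflammatory cytokine used on such cultures as a model of the inflamed joint. Whether the 4 samples of a group came from separate animals or cultures is not stated in the sources used here, so that p-values measure only the spread between these samples, which may be technical.

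Cells take up iron bound to transferrin through the transferrin receptor, reduce it to ferrous iron in endosomes by STEAP reductases and move it into the cytosol through the divalent metal transporter. Iron that is not used is stored in ferritin, a hollow shell of heavy and light chains, or leaves the cell through ferroportin. Inflammation is known to shift this balance in macrophages and liver. The iron regulatory proteins bind a hairpin in the untranslated regions of several of these mRNAs, blocking translation where it lies before the coding sequence and protecting the mRNA from decay where it lies after it.

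These hairpins, the iron-responsive elements, are shown first because Fth1, Ftl1, Slc40a1 and Tfrc each hold at least 1 of them. They were searched for as an unpaired C, 5 bases, the loop CAGTG followed by A, C or T, and 5 bases that pair with the first 5, with G-T pairs allowed, on the sense strand of GENCODE vM21 transcripts (GRCm38). One element was found in the 5′ UTR of each of Fth1, Ftl1 and Slc40a1, and 4 were found in the 3′ UTR of Tfrc. Not every annotated coding transcript held it: 4 of 5 did for Fth1, 2 of 3 for Ftl1 and 1 of 4 for Slc40a1. Each Tfrc element was in 1 of 3, and counts per gene do not tell transcripts apart. Such a match was present in the 5′ UTR of 23 of 21200 coding genes (0.108%) and in the 3′ UTR of 110 of 21849 (0.503%). No match was found in Slc11a2 or the 4 Steap genes, which says only that this pattern is not in their annotated UTRs. A match is a description of the sequence, and binding was not measured. Each element is printed 5′ to 3′ on the transcript's strand, with the unpaired C and the 6-base loop in capitals.
Fth1 5′ UTR, chr19:9982731-9982760 (+ strand): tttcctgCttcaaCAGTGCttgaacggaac
Ftl1 5′ UTR, chr7:45459779-45459808 (- strand): tgtcttgCttcaaCAGTGTttgaacggaac
Slc40a1 5′ UTR, chr1:45925465-45925494 (- strand): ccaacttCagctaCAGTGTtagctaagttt
Tfrc 3′ UTR, element 1, chr16:32631218-32631247 (+ strand): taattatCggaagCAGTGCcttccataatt
Tfrc 3′ UTR, element 2, chr16:32631597-32631626 (+ strand): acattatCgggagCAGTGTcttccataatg
Tfrc 3′ UTR, element 3, chr16:32631662-32631691 (+ strand): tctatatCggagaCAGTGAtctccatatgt
Tfrc 3′ UTR, element 4, chr16:32631709-32631738 (+ strand): taattatCgggaaCAGTGTttcccataatt
Fth1 and Ftl1 had the same bases in both arms of the stem, whereas the 4 elements of Tfrc differed from each other in their stems.

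The table held 10992355 to 17104351 counts per sample with IL-1β and 13970959 to 17456063 with vehicle. Levels are given as TMM-scaled counts scaled to library size (CPM), where TMM is edgeR's scaling between libraries, and a limit of detection of 3 counts was 0.174 to 0.271 CPM. All 9 genes were among the 14404 that reached a CPM over 1 in 4 or more samples and were tested by edgeR's quasi-likelihood test with Benjamini-Hochberg adjustment over all of them. A gene was called higher or lower at an adjusted p under 0.05, and is termed a DEG (differentially expressed gene) if the log2 fold change also lay beyond 1 or -1. Of 15 chondrocyte markers, all were expressed in both groups, and 14 were lower and 1, Prg4, was higher with IL-1β. Over all genes tested, 19.8% were lower and 20.4% were higher. Their summed level was 6430 to 6969 CPM with IL-1β and 17870 to 18500 CPM with vehicle, and the part of this in the results below was not tested. In such bulk samples fewer cells of a type and less RNA per cell cannot be told apart.

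After IL-1β, 6 of the 9 iron genes were higher than with vehicle, against 20.4% of all genes tested, and 0 of 9 were lower, against 19.8%. The 6 were Steap4, Fth1, Slc11a2, Steap2, Tfrc and Ftl1. Of these, 4 were upregulated DEGs (Steap4, Fth1, Slc11a2 and Steap2), against 2.86% of all genes, and 0 were downregulated DEGs, against 2.35%. The samples of both groups did not overlap for the same 6 genes, whereas 36.8% of all genes had groups that did not overlap in either direction. Ferroportin (Slc40a1), Steap1 and Steap3 did not pass the test.

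**Figure D1:**
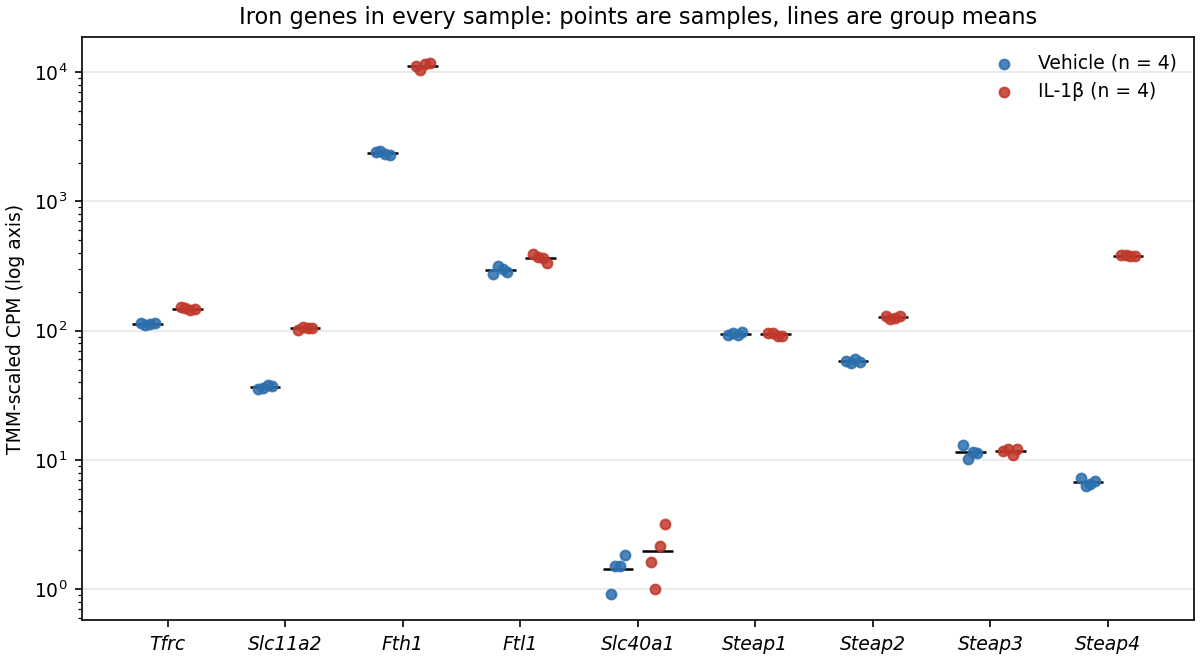
TMM-scaled CPM (log axis) of the 9 iron genes in each of the 4 vehicle (blue) and 4 IL-1β (red) samples, with lines at the group means. The groups are apart for Tfrc, Slc11a2, Fth1, Ftl1, Steap2 and Steap4 and overlap for Slc40a1, Steap1 and Steap3.

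To examine iron uptake, the levels of both importers were compared. Tfrc encodes transferrin receptor 1 (ENSMUSG00000022797.16, chr16:32608920-32632794, + strand). Its level was 153, 149, 146 and 146 CPM in the IL-1β samples and 114, 110, 112 and 114 CPM in the vehicle samples (148 ± 3.28 against 112 ± 2.04 CPM, SD, n = 4). Each IL-1β sample lay above each vehicle sample, although the change was small. The log2 fold change was 0.40 (SE 0.031), or 1.32-fold, with an adjusted p of 1.01e-11 in edgeR's quasi-likelihood test.

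The other importer, Slc11a2, encodes the divalent metal transporter DMT1 (ENSMUSG00000023030.16, chr15:100387898-100425072, − strand), which carries ferrous iron across the endosomal and plasma membranes. It was at 101, 108, 105 and 105 CPM with IL-1β and at 35.7, 36.3, 38.1 and 37.4 CPM with vehicle (105 ± 2.79 against 36.9 ± 1.1 CPM, SD, n = 4). The groups lay far apart relative to their spread. Slc11a2 rose 2.84-fold (log2 fold change 1.51, SE 0.0405, adjusted p = 1.94e-22 by edgeR). Exons of Slc11a2 shared 6.33% of their bases with Gm5475 on the opposite strand, a gene with 1 to 19 reads per sample. Whether strand was used in counting is not given in the sources used here.

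Per kilobase of gene length, the storage genes were the most abundant of the 9 in both groups. In CPM, the mean of Steap4 with IL-1β (382) was above that of Ftl1 (364). Fth1 encodes the ferritin heavy chain, which holds the ferroxidase activity (ENSMUSG00000024661.7, chr19:9980598-9985098, + strand). It reached 11070, 10370, 11580 and 11710 CPM with IL-1β, against 2400, 2442, 2328 and 2298 CPM with vehicle. The lowest IL-1β sample was thus several times above the highest vehicle sample. The means were 11180 ± 608 and 2367 ± 66.1 CPM (SD, n = 4), a 4.73-fold rise (log2 fold change 2.24, SE 0.030, adjusted p = 9.86e-30 by edgeR). Fth1 alone took 1.11% of all counts with IL-1β and 0.236% with vehicle. Among the 14404 genes tested its log2 fold change ranked 97.

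Ftl1 encodes the ferritin light chain, which promotes mineral formation inside the shell (ENSMUSG00000050708.16, chr7:45457944-45459884, − strand). Its level was 394, 369, 363 and 332 CPM with IL-1β and 274, 317, 299 and 284 CPM with vehicle (364 ± 25.1 against 293 ± 18.7 CPM, SD, n = 4). The groups did not overlap, but the lowest IL-1β sample was close to the highest vehicle sample. Ftl1 was 1.24-fold higher (log2 fold change 0.31, SE 0.0436, adjusted p = 9.32e-07 by edgeR). Exons of Ftl1 shared 34.6% of their bases with other genes, namely Gm22133 on the same strand with 0 reads and Gm10252 on the opposite strand with 13 to 31 reads per sample. Ferritin genes have processed pseudogenes, and the rows of the table named as such held 0.0196% to 0.0844% of the reads of Fth1 and 1.41% to 2.55% of those of Ftl1. Reads that could not be placed between such copies, or between overlapping genes, are not visible in the counts. The percentages and read numbers given here put no bound on them, so that the Ftl1 level in particular is uncertain.

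The ratio of both chains within a sample does not depend on the scaling between samples. Per kilobase of the deposited gene length, the log2 ratio of Fth1 to Ftl1 was 5.44, 5.44, 5.63 and 5.77 with IL-1β and 3.76, 3.58, 3.59 and 3.65 with vehicle. The geometric means were 47.5 and 12.5 (Fth1 to Ftl1, reads per kilobase), and the difference of 1.93 on the log2 scale had p = 0.0286 in a two-sided exact permutation test (0.0381 adjusted over 4 ratios). With 4 against 4 samples, 0.0286 is the smallest p that this test can give. The ratio of ferritin (both chains) to Tfrc was 549 with IL-1β and 162 with vehicle, a difference of 1.76 on the log2 scale with the same exact permutation p of 0.0286 and adjusted p of 0.0381. The summed ferritin level is nearly all Fth1, and Ftl1 by itself changed less than Tfrc (log2 fold change 0.31 against 0.40; the difference was not tested). The deposited length of Fth1 was 866 bases, whereas its exons in vM21 cover 3469 bases, which scales both levels of the ratio and not the change of Fth1. The levels of the Fth1 to Ftl1 ratio also carry the unknown share of Ftl1 reads that were not placed.

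Ferroportin, the exporter of iron encoded by Slc40a1 (ENSMUSG00000025993.10, chr1:45908068-45926523, − strand), was the lowest of the 9 genes in level per kilobase. Reads numbered 18, 14, 36 and 45 with IL-1β and 16, 26, 21 and 28 with vehicle. These reads were 1.63, 1.01, 2.15 and 3.20 CPM with IL-1β and 0.926, 1.507, 1.502 and 1.85 CPM with vehicle, and the groups overlapped. The log2 fold change of 0.49 (SE 0.272) had an approximate 95% interval of -0.039 to 1.03 and an adjusted p of 0.159 by edgeR, so that a difference was not detectable at this depth. The outcome rests on a single library, since without IL-1β replicate 2 the log2 fold change was 0.72 with an adjusted p of 0.0268. The log2 ratio of Tfrc to Slc40a1 was 6.88 ± 0.717 with IL-1β and 6.87 ± 0.428 with vehicle (SD, n = 4, exact permutation p = 1).

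**Figure D2:**
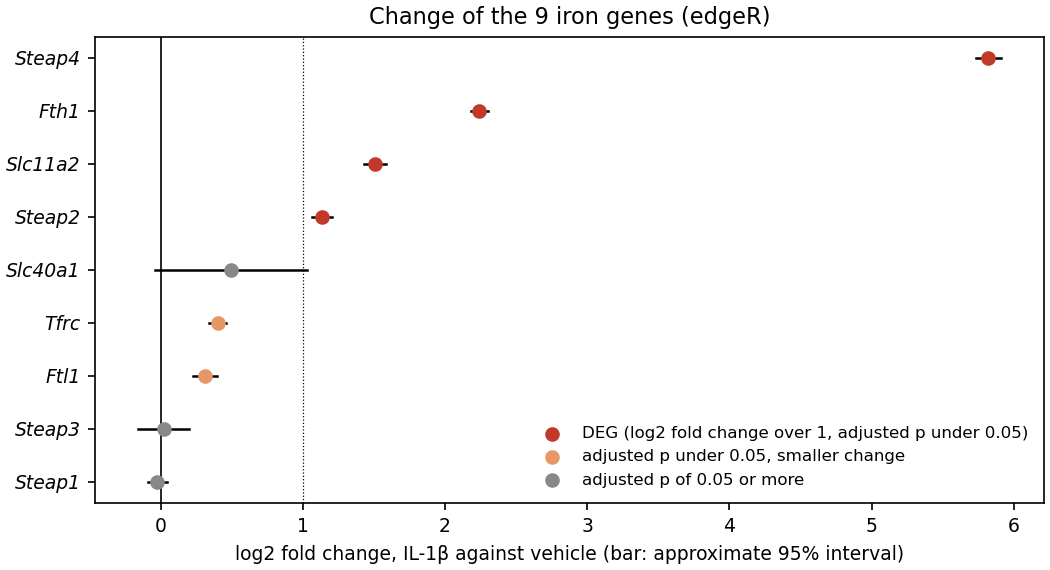
log2 fold change of the 9 iron genes between IL-1β and vehicle by edgeR, with bars of the 95% interval, and a dotted line at 1. Steap4 (5.82), Fth1 (2.24), Slc11a2 (1.51) and Steap2 (1.13) lie above 1, Tfrc (0.40) and Ftl1 (0.31) lie between 0 and 1, and the bars of Slc40a1, Steap1 and Steap3 cross 0.

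The STEAP proteins are membrane reductases that pass electrons to ferric iron and cupric copper. Of the 4 family members, Steap4 and Steap2 rose with IL-1β, and Steap1 and Steap3 did not pass the test. Steap4 (ENSMUSG00000012428.9, chr5:7960457-7982213, + strand), known from adipose tissue as a metalloreductase that responds to inflammatory cytokines, was at 383, 386, 377 and 381 CPM with IL-1β and at 7.24, 6.32, 6.51 and 6.92 CPM with vehicle. These levels were 4234 to 6334 reads with IL-1β and 91 to 125 with vehicle, so that the low group was also well above 3 counts. The means of 382 ± 3.64 and 6.75 ± 0.412 CPM (SD, n = 4) differed 56.5-fold. The log2 fold change of 5.82 (SE 0.0447, adjusted p = 2.40e-35 by edgeR) ranked 9 among the 14404 genes tested.

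Steap2 (ENSMUSG00000015653.13, chr5:5664829-5694578, − strand), a reductase of iron and copper, was at 131, 123, 126 and 131 CPM with IL-1β and at 58.7, 56.5, 60.3 and 57.1 CPM with vehicle. The groups were apart by more than the range within either of them. The means were 128 ± 3.9 and 58.1 ± 1.71 CPM (SD, n = 4), a rise of 2.19-fold (log2 fold change 1.13, SE 0.037, adjusted p = 2.02e-20 by edgeR).

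Steap1 (ENSMUSG00000015652.9, chr5:5736317-5749326, − strand), which lacks the reductase domain that binds NADPH in its relatives, was at 96.2, 95.3, 91.2 and 91.4 CPM with IL-1β and at 92.1, 96.7, 93.2 and 97.4 CPM with vehicle. The groups overlapped throughout. The log2 fold change was -0.02 with a 95% interval of -0.092 to 0.048 and an adjusted p of 0.671 by edgeR. Steap1 and Steap2 lie close together on the same strand of chromosome 5. The difference between their changes was not tested.

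Steap3 (ENSMUSG00000026389.16, chr1:120190757-120272705, − strand), the ferrireductase of the transferrin cycle in erythroid cells, was at 11.7, 12.1, 11.0 and 12.2 CPM with IL-1β and at 13.02, 10.3, 11.4 and 11.3 CPM with vehicle. The highest and the lowest of the 8 samples were both vehicle samples. The log2 fold change was 0.02, with a 95% interval of -0.156 to 0.203 and an adjusted p of 0.87 by edgeR, and it turned to -0.033 without vehicle replicate 2.

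Per kilobase of gene length, the make-up of the STEAP transcripts was turned over. Steap4 was 59.5%, 60.0%, 60.4% and 60.3% of the reads per kilobase of the 4 genes with IL-1β and 3.00%, 2.55%, 2.69% and 2.75% with vehicle. The means of 60.1% ± 0.409 and 2.75% ± 0.192 (SD, n = 4) differed with p = 0.0286 in the exact permutation test (0.0381 adjusted). Steap1 made up 88.5% ± 0.694 with vehicle and 33.7% ± 0.476 with IL-1β, although its own level differed by less than the spread between samples. Steap2 accounted for 6.16% and 5.22% and Steap3 for 2.59% and 1.02%, in vehicle and IL-1β samples, respectively. These shares depend on the deposited gene lengths. In CPM, the mean of Steap2 was above that of Steap1 with IL-1β (128 against 93.5) and below it with vehicle (58.15 against 94.9). With raw counts in place of reads per kilobase, the Steap4 share differed by 58.2 percentage points between the groups. The summed level of the family was 77.8 ± 1.58 CPM per kb with vehicle and 201 ± 2.86 CPM per kb with IL-1β.

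**Figure D3:**
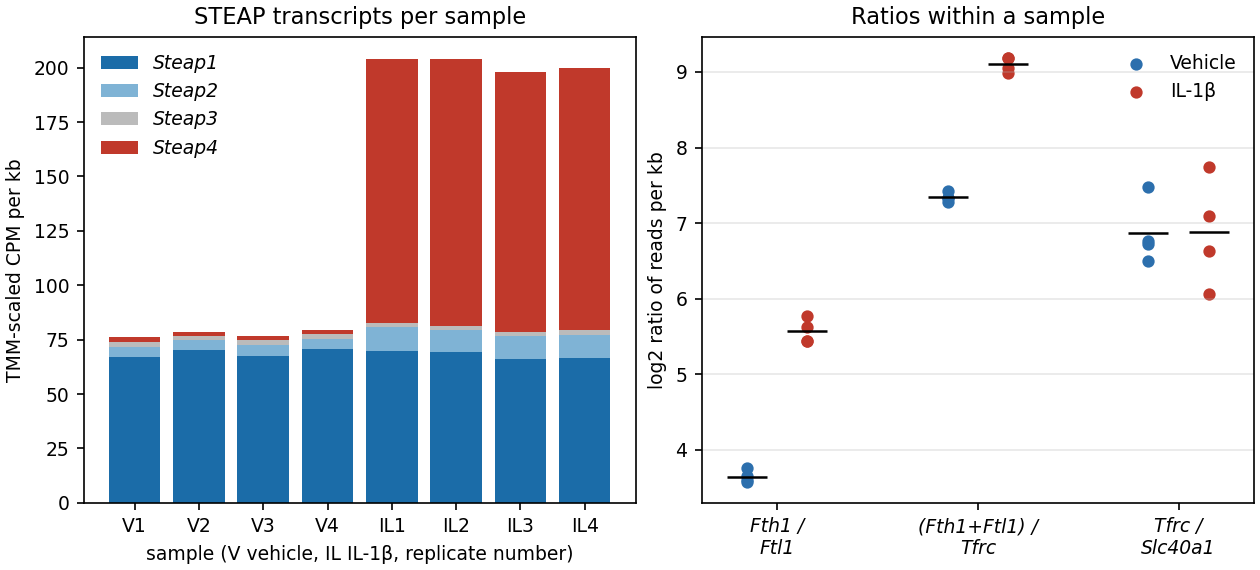
Left, TMM-scaled CPM per kb of Steap1 to Steap4 stacked for each vehicle (V) and IL-1β (IL) sample; right, log2 ratios of reads per kb within each sample (points) and their group means (lines). The Steap4 share is 60.1% with IL-1β and 2.75% with vehicle on average, and the ratios of Fth1 to Ftl1 and of ferritin to Tfrc are higher with IL-1β in each sample, while those of Tfrc to Slc40a1 overlap.

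In levels per kilobase, the vehicle samples were ordered Fth1, Ftl1, Steap1, Tfrc, Slc11a2, Steap2, Steap4, Steap3 and Slc40a1, from highest to lowest. The neighbours Steap4 and Steap3 overlapped, while the other neighbours were apart. With IL-1β the order was Fth1, Ftl1, Steap4, Steap1, Tfrc, Slc11a2, Steap2, Steap3 and Slc40a1, and each neighbouring pair was apart. Fth1 was at 12910 CPM per kb with IL-1β and 2733 with vehicle, or at 3223 and 682 with its vM21 exon length, which leaves it first in both groups. Steap4 moved from the seventh to the third place.

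For Steap4 and Fth1, which had the largest changes of the 9 genes, a promoter is shown from 250 bases before to 50 bases after the start (RefSeq, GRCm38.p6). Of the 9 genes, 7 had an entry, with 14 entries in all; Slc40a1 and Slc11a2 had none. Fth1 had 2 entries, of which chr19:9980350-9980649 held no match and is not printed. Both strands were searched for GGGANNTTC (κB), TGANTCA (AP-1), TTCNNNGAA (STAT), TTGCNNAA (C/EBP) and TGACNNNGC (antioxidant response element), and matches are in capitals.
Steap4 promoter, chr5:7960222-7960521 (+ strand): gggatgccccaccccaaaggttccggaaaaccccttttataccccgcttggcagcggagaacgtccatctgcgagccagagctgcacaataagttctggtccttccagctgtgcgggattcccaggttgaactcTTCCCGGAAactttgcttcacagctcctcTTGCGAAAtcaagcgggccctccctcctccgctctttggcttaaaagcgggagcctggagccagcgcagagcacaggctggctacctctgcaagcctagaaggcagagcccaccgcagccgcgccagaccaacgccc
Fth1 promoter, chr19:9982396-9982695 (+ strand): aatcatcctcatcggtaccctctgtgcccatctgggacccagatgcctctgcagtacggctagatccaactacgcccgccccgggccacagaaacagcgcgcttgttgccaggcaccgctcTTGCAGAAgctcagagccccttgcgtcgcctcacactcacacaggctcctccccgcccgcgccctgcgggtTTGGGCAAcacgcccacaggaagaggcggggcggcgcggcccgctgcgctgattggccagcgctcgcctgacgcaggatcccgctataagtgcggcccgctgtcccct
In the Steap4 promoter, TTCCCGGAA of the STAT pattern lay 116 bases and TTGCGAAA of the C/EBP pattern 87 bases before the start. In the Fth1 promoter, the C/EBP pattern was matched by TTGCAGAA 129 bases and TTGGGCAA 58 bases before the start. The STAT pattern was in a promoter of Steap2 and Steap4, the C/EBP pattern in one of Fth1, Steap3 and Steap4, and the antioxidant response element in one of Steap2, whereas the κB and AP-1 patterns were in none. An absent match says only that the pattern as written was not in these entries, and variants of the patterns were not searched for. Over 32851 promoters these patterns were found in 8.3% (STAT), 10.8% (C/EBP), 12.4% (antioxidant response element), 3.94% (κB) and 7.81% (AP-1). These shares are per promoter entry, whereas the genes named above were counted over any of their entries. The shares and the gene counts are therefore not directly comparable. Steap3, which holds a C/EBP match, did not pass the test, and no binding was measured.

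Next, the other genes of iron handling were examined by lists. Over all genes tested, 20.4% were higher, 19.8% were lower, 2.86% were upregulated DEGs and 2.35% were downregulated DEGs. Among other genes of uptake and reduction, 6 of 12 tested were higher, 3 were lower and 3 did not pass, with a median log2 fold change of 0.29, against -0.001 for all genes tested. The metal transporters Slc39a14 (ZIP14; 588 ± 10.1 against 172 ± 4.62 CPM, log2 fold change 1.78) and Slc39a8 (ZIP8; 39.3 ± 2.16 against 6.38 ± 0.452 CPM, 2.63) and the ferritin receptor Scara5 (31.1 ± 0.654 against 10.4 ± 0.91 CPM, 1.59) were upregulated DEGs. Lcn2, which binds iron-carrying siderophores, rose from 286 ± 9.85 to 8108 ± 253 CPM (log2 fold change 4.83, adjusted p = 4.82e-37 by edgeR). Changes in the other direction were also seen, as the ferrireductase Cybrd1 (2.66 against 6.85 CPM, log2 fold change -1.34) and the transferrin-like Meltf (13.1 against 32.3 CPM, -1.31) were downregulated DEGs. Hfe (0.65) and the reductase Frrs1 (0.49) were higher and the endocytic receptor Lrp2 (-0.79) was lower. The 3 that did not pass, named after their values were seen, were Tfr2 (-0.22), the Lcn2 receptor Slc22a17 (-0.28, adjusted p = 0.246 by edgeR) and Cyb561a3 (0.092).

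Genes that act on the iron-responsive elements and on ferritin changed little. Of 6 tested, 1 was higher, 3 were lower and 0 were DEGs, with a median log2 fold change of -0.093. Over all genes tested, 20.4% were higher, 19.8% were lower, and 2.86% and 2.35% were up- and downregulated DEGs. In a list of this size, 1 higher gene and 0 DEGs are near these shares. Fbxl5, which targets iron regulatory protein 2 for degradation, was higher (log2 fold change 0.21). Ncoa4, the receptor for autophagy of ferritin (-0.15), and the iron chaperones Pcbp1 (-0.10) and Pcbp2 (-0.081) were lower. The iron regulatory proteins themselves, named here after their values were seen, did not pass the test: Aco1 was at 53.8 ± 1.37 against 56.0 ± 1.68 CPM and Ireb2 at 51.2 ± 3.94 against 55.0 ± 3.86 CPM, with IL-1β and vehicle, respectively.

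Of the genes of export and its hepcidin control, 4 passed the filter on low counts, and Hamp passed it only through the IL-1β samples. Of the other 3, Cp was higher, Neo1 was lower and Bmp6, named after its values were seen, did not pass the test (3.90 ± 0.588 against 3.60 ± 0.324 CPM). Cp encodes ceruloplasmin, the ferroxidase that works with ferroportin, and rose from 111 ± 3.01 to 281 ± 9.28 CPM (log2 fold change 1.34). Hamp, which encodes the hormone hepcidin, had 42, 60, 79 and 67 reads with IL-1β and 0, 2, 1 and 1 reads with vehicle. Since each vehicle sample was below 3 counts, neither a fold nor the call is given as a result. Neo1 encodes a partner of the hepcidin pathway (log2 fold change -0.50). Hamp2 and Hfe2 were at 0 in all samples.

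Of 18 genes of haem synthesis, transport and breakdown, 7 were higher, 3 were lower and 8 did not pass, with a median log2 fold change of 0.17. The shares over all genes tested were 20.4% higher and 19.8% lower, so that the 3 lower genes are near the share. The list held 3 upregulated DEGs, Hmox1, Slc48a1 and Hp, and 0 downregulated DEGs, against 2.86% and 2.35% of all genes tested. Haem oxygenase 1 (Hmox1), which releases iron from haem, rose from 368 ± 7.24 to 853 ± 66.3 CPM (log2 fold change 1.21), and the haem transporter Slc48a1 from 245 ± 2.94 to 525 ± 5.29 CPM (1.10). Haptoglobin (Hp), which binds free haemoglobin, rose from 1.72 ± 0.432 to 239 ± 10.6 CPM (7.09). Smaller changes were seen for Blvrb (0.60), Flvcr2 (0.52), the synthesis enzyme Alas1 (0.36) and the synthesis enzyme Cpox (-0.38). The other haem oxygenase gene, Hmox2, named after its values were seen, was lower (-0.31).

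Of 24 tested genes of mitochondrial iron and iron-sulfur assembly, 4 were higher, 4 were lower, 16 did not pass and 0 were DEGs (median log2 fold change -0.017). In a list of this size these counts are near the shares over all genes (20.4% higher, 19.8% lower, 2.86% and 2.35% up- and downregulated DEGs). Iba57 (0.56), the mitochondrial iron importer Slc25a37 (0.40) and Cisd2 (0.29) were higher and Lyrm4 (-0.54) was lower. Since STEAP proteins also reduce copper, genes of copper handling were included, of which 4 of 8 were higher and 0 were lower (median 0.13). The copper pump Atp7b was called a DEG at a low level (2.72 ± 0.329 against 1.10 ± 0.294 CPM, log2 fold change 1.33). Its vehicle samples ranged from 0.6945 to 1.385 CPM. Atp7b would not have passed the filter on low counts without the IL-1β samples, so that its call as a DEG depends on that group. Atp7a (0.31), Atox1 (0.19) and the copper importer Slc31a1 (0.12) were higher by less.

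Of 11 tested genes of ferroptosis, a form of cell death that depends on iron, 6 were higher, 3 were lower and 2 did not pass (median log2 fold change 0.095). The shares over all genes tested were 20.4% higher and 19.8% lower. The cystine importer Slc7a11 (128 ± 10.6 against 51.4 ± 1.61 CPM, log2 fold change 1.31) and Gch1, the first enzyme of tetrahydrobiopterin synthesis (46.9 ± 2.19 against 14.9 ± 1.02 CPM, 1.65), were upregulated DEGs. Cbs, an enzyme of cysteine synthesis from homocysteine, was called a downregulated DEG at a low level (0.830 ± 0.317 against 1.957 ± 0.384 CPM, -1.23). Its samples ranged from 1.623 to 2.505 CPM with vehicle and from 0.6403 to 1.302 CPM with IL-1β. Cbs would not have passed the filter on low counts without the vehicle samples, so that its call as a DEG depends on that group. Acsl4 (0.60), which loads membranes with oxidisable fatty acids, Aifm2 (0.28) and Lpcat3 (0.23) were higher, and Dhodh (-0.29) was lower. Gpx4, named after its values were seen, was also called higher (0.095). The samples of both groups overlapped for Gpx4 and Aifm2. The genes called higher thus included Slc7a11, Gch1 and Aifm2, known to protect from ferroptosis, and Acsl4 and Lpcat3, known to promote it.

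**Figure D4:**
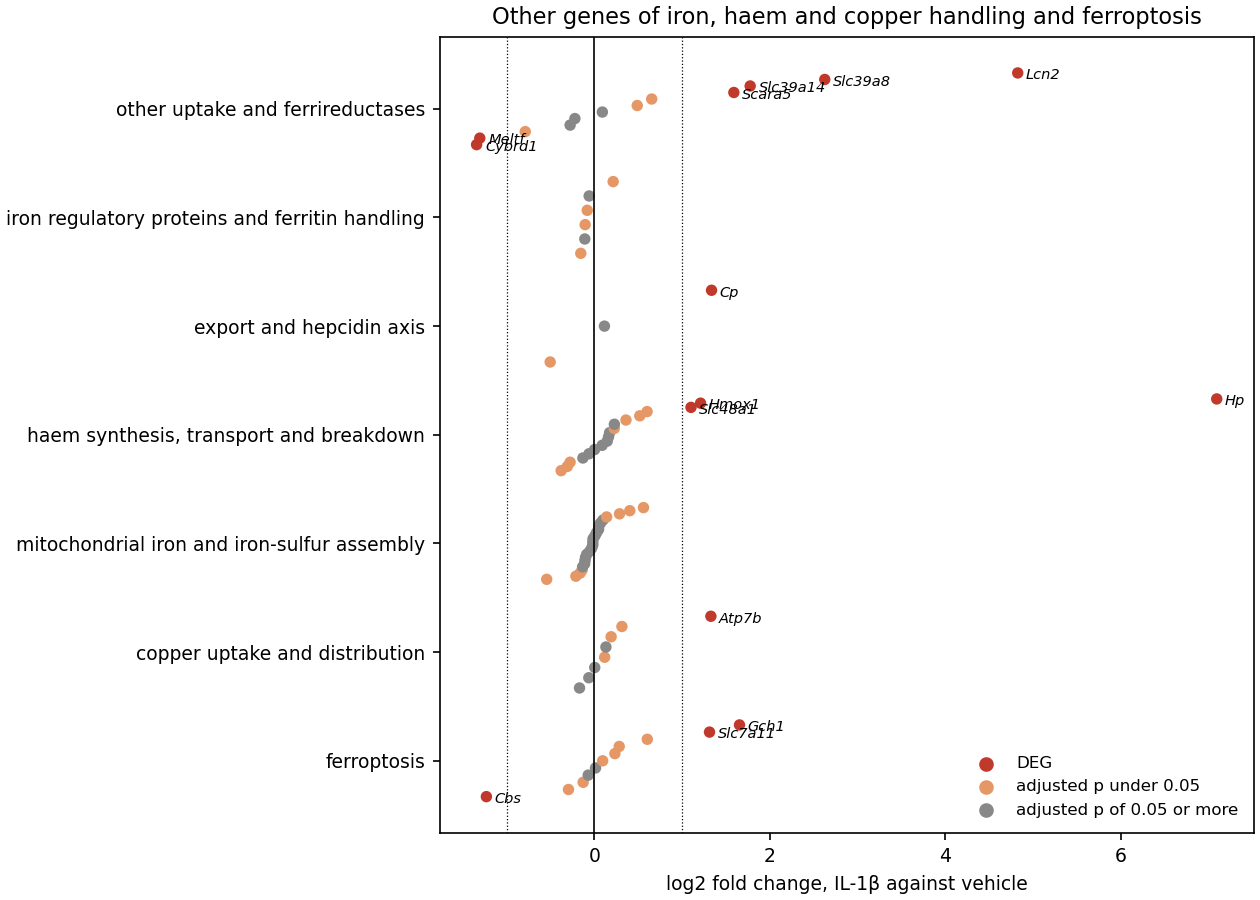
log2 fold change between IL-1β and vehicle of each tested gene in 7 lists of iron, haem and copper handling and ferroptosis, coloured by the outcome of edgeR's test, with dotted lines at -1 and 1. Hp (7.09) and Lcn2 (4.83) lie farthest to the right, no gene of mitochondrial iron and iron-sulfur assembly lies beyond a dotted line, and Hamp is not drawn because each vehicle sample had fewer than 3 reads.

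Some iron-handling genes are also abundant in blood and bone cells, and markers of such cells were measured beside them. Erythroid markers summed to 0.498 to 0.834 CPM with IL-1β and 0.132 to 0.579 CPM with vehicle, with Hbb-bt at 0. Neutrophil markers summed to 1.23 to 1.55 CPM against 0 to 0.521 CPM, and Ly6g, Elane, Mpo and Ltf were at 0. Of these 8 genes only Camp passed the filter, through its IL-1β samples alone (1.01 to 1.49 CPM against 0 to 0.330 CPM), so that its call as a DEG depends on that group. Macrophage markers summed to 30.6 to 34.2 CPM with IL-1β and 14.9 to 18.2 CPM with vehicle. Most of this sum was Cd68 (13.02 to 16.3 against 8.51 to 10.1 CPM) and Cd14 (13.7 to 14.6 against 3.30 to 4.22 CPM, a DEG). The only other tested gene of these 14, Lyz2, was lower (1.01 to 1.54 against 1.56 to 2.29 CPM). Ptprc, Adgre1 and Itgam were at or below 0.434 CPM in all samples, and C1qb and Marco were at 0. Osteoclast markers summed to 133 to 138 CPM against 110 to 112 CPM, of which Ctsk alone was 131 to 138 CPM with IL-1β and 109 to 111 CPM with vehicle and the other 6 were each below 1 CPM, with Dcstamp at 0, and endothelial markers to 1.07 to 1.67 against 0.868 to 1.72 CPM. The part of these markers in the results was not tested.

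Finally, genes with a pattern most like that of each DEG among the 9 were listed, by the root mean square difference of log2 CPM profiles over the 8 samples, each centred on its own mean. Before the log2, 0.05 CPM was added to each value. For Steap4 these genes were Mmp3 (0.181), a matrix-degrading protease, Nos2 (0.276), the inducible nitric oxide synthase, and Cxcl3 (0.308), a chemokine. Cxcl3 had a mean of 0.530 CPM with vehicle. It would not have passed the filter on low counts without the IL-1β samples, so that its place here depends on that group. For Fth1 they were Tsku (0.0698), Fstl1 (0.074) and Cyp7b1 (0.0742). For Slc11a2 they were Dcn (0.0276), Lox (0.0414) and Camkk2 (0.0442), of which Dcn and Lox encode a proteoglycan and a collagen-crosslinking enzyme of the matrix. For Steap2 they were the lipid droplet gene Plin2 (0.0371), the proteoglycan gene Sdc4 (0.0438) and the lactate transporter gene Slc16a1 (0.0447). With 2 groups of samples, this measure reads mainly the size of the change between them.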

How the data were processed

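RNA-Seq counts of 8 samples, grouped by the treatment in their labels, were analysed. The authors trimmed the reads, mapped them with STAR to mm10 and assigned them to genes by featureCounts. The deposited values are whole read counts, 1 row per symbol, not scaled between samples. It is not stated whether RUVseq, named in the methods for batch effects, had been applied to them. A gene length in bases (unit: other) was deposited by the authors next to the counts and used here for levels per kilobase only.

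After TMM scaling, 14404 genes (CPM over 1 in 4 or more samples) entered a quasi-likelihood fit on treatment alone in edgeR 4.0.16 under R 4.3.3. In a simulation of this comparison on 14404 genes, edgeR recovered 100% of 200 changed genes with 1 false call. The changed genes were not at low levels and all had log2 fold changes beyond 1 or -1. Recovery of smaller changes, as of Tfrc and Ftl1, or at low levels, as of Slc40a1, was therefore not measured. The 95% intervals of log2 fold changes are normal approximations from their standard errors. Ratios were tested by exact permutation (scipy 1.17.1). Depth was 10992355 to 17456063 counts per sample, and the limit of 3 counts covers counting error only. The named genes are the 9 genes, and from each list the DEGs and up to 4 further genes past the test with the largest log2 fold changes; for marker lists, the DEGs and genes at 0, with the exception that the DEGs of the chondrocyte list are counted. For each of the 9 genes called a DEG, the 3 most alike genes are named. The genes and lists were chosen with earlier results of these data known. Same-numbered replicates did not deviate together (correlations of -0.063 to 0.032). Alternatives were DESeq2 1.42.0, its size factors, total library size, other filters, RUVs, a replicate block, pseudogene rows added, raw counts in ratios, a log2 fold change beyond 2, and each sample left out. Protein sequences were not used here.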

Additional observations from a re-analysis of the deposited data

How the results depend on the processing

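The counts of 6 higher genes, 0 lower genes and 4 DEGs held under each alternative run, except that 7 genes were higher without IL-1β replicate 2 (Slc40a1 was added) and 2 DEGs (Steap4 and Fth1) were left with a log2 fold change beyond 2. With the replicate number as a block, the counts were again 6, 0 and 4, and the differences in the ratios stayed at 1.93 (Fth1 to Ftl1), 1.76 (ferritin to Tfrc) and 57.3 percentage points (Steap4 share), but the exact sign-flip test of 4 pairs gave an adjusted p of 0.167, and the block was not supported by the deviations of same-numbered samples. With each replicate left out in turn, these differences were 1.86 to 1.97, 1.73 to 1.79 and 57.2 to 57.5. The adjusted p of the exact permutation test was 0.0762 in each case. It is the smallest p of 3 against 4 samples after adjustment over the 4 ratios, of which Tfrc to Slc40a1 did not pass. The difference in the log2 ratio of Tfrc to Slc40a1, 0.015 with all samples, ran from -0.274 to 0.290 and changed sign in 5 of 8 cases. The log2 fold change of Steap3 ran from -0.033 to 0.091, changing sign without vehicle replicate 2. That of Slc40a1 ran from 0.184 to 0.72 over 14 alternatives and passed the test without IL-1β replicate 2. Slc40a1 was removed by a filter of CPM above 1 in all 8 samples. Depth limits Slc40a1 and Cbs, and it limits Hamp, Camp, Cxcl3 and Atp7b in vehicle samples. The 4 samples per group limit the exact tests.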

Other observations

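The 2 Fth pseudogene rows had few reads, given here without scaling to library size. Fth-ps3 had 15, 29, 25 and 29 reads with IL-1β and 7, 4, 4 and 2 with vehicle, whereas Fth-ps2 had 9, 17, 14 and 7 reads with IL-1β and 28, 25, 12 and 23 with vehicle. The groups overlapped for Fth-ps2. Whether these reads came from the pseudogenes or from Fth1 cannot be told from the counts. These rows were named after their values were seen and were not tested here.

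Heph, a ferroxidase related to ceruloplasmin, was below the filter on low counts, with 0.341 ± 0.0379 CPM in the IL-1β samples and 0.0324 ± 0.0378 CPM in the vehicle samples (SD, n = 4), and was not tested.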
